A study of Mus musculus with 37 samples.

Results

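The genes examined were the 4 adult haemoglobin genes of the mouse, *Hba-a1*, *Hba-a2*, *Hbb-bs* and *Hbb-bt*, of the 21975 genes measured in astrocytes from the hippocampus. They were taken by symbol and were selected on a measured value, the difference of *Hbb-bs* between the hemispheres in these same libraries. Values that compare the hemispheres are therefore given as a description, with no test. The group contrasts within a hemisphere use the same levels, so their p-values are not free of this selection. The astrocytes came from adult male mice that the study describes as CD1 and the labels describe as wild type with the background written CD31. The cells were captured on ACSA-2 magnetic beads 4 months after a controlled cortical impact over the right parietal cortex or after a sham craniectomy, and recording electrodes had been implanted in all 3 groups. PTE+ mice were injured and later had spontaneous epileptic episodes, PTE- mice were injured without them, and sham mice had the craniectomy alone. The contralateral hippocampus gave 5 PTE+, 10 PTE- and 5 sham libraries, the ipsilateral hippocampus gave 4, 8 and 5, and each of the 17 ipsilateral libraries had a contralateral partner from the same mouse. The methods describe transcardial perfusion for the brains used in histology and mention neither perfusion nor removal of red cells for the isolated astrocytes.

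Adult haemoglobin is a tetramer of 2 alpha chains and 2 beta chains, each holding a haem group. Its genes are transcribed at very high level in erythroid precursors, and the messages persist in reticulocytes, so haemoglobin reads in brain tissue are commonly used as a trace of blood. Low haemoglobin expression by neurons and glia has also been described. *Hba-a1* and *Hba-a2* encode the alpha chain, and *Hbb-bs* and *Hbb-bt* encode the beta chain in the haplotype carried by the reference strain. In the GENCODE annotation of GRCm38 the alpha genes lie on the forward strand at chr11:32283511-32284465 (*Hba-a1*, ENSMUSG00000069919) and chr11:32296489-32297298 (*Hba-a2*, ENSMUSG00000069917). The beta genes lie on the reverse strand at chr7:103826534-103828096 (*Hbb-bs*, ENSMUSG00000052305) and chr7:103812524-103813996 (*Hbb-bt*, ENSMUSG00000073940). Each main transcript has 3 exons.

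The copies of each chain are shown first because their likeness decides how far a level of a single copy can be read. The coding sequences of the alpha copies, 429 bases each, differed at 1 base, the substitution C381T counted from the first base of the start codon with the *Hba-a1* base first. The coding sequences of the beta copies, 444 bases each, also differed at 1 base, C417T, with the *Hbb-bs* base first. The annotated main transcripts shared unbroken runs of 415 bases for the alpha pair and 430 bases for the beta pair. The coding windows around the differing base, in capitals, are from the GENCODE transcripts and are written 5′ to 3′.
Hba-a1: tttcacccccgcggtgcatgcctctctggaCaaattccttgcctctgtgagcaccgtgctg
Hba-a2: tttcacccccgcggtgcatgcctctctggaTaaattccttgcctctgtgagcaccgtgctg
Hbb-bs: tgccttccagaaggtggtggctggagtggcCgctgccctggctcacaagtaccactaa
Hbb-bt: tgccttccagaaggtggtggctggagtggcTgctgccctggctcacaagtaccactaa

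The 250 bases before each start site, from RefSeq on GRCm38.p6, are shown because the 4 genes moved together across libraries. Capitals mark matches on either strand to 4 short motifs. These were ATATAA as a TATA-like box, CCAAT as the box of that name, CACCC as the core of the box that Klf1 binds, and GATAA as the core that GATA factors bind. In *Hbb-bt* a pair of CCAAT matches on opposite strands abut, and one further match lies beside the TATA-like box. The windows are chr11:32283422-32283671 on the forward strand for *Hba-a1*, chr7:103827929-103828178 on the reverse strand for *Hbb-bs* and chr7:103813924-103814173 on the reverse strand for *Hbb-bt*. RefSeq places these starts downstream of the 5′ gene ends that GENCODE gives above, so 161 bases of the window of *Hba-a1*, 168 of *Hbb-bs* and 73 of *Hbb-bt* lie inside the GENCODE gene, and distances are counted from the RefSeq start.
Hba-a1: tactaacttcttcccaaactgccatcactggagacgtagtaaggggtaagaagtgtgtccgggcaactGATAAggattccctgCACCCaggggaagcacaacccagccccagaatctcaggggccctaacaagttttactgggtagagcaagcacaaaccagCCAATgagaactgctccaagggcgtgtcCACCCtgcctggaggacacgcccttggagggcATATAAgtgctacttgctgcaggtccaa
Hbb-bs: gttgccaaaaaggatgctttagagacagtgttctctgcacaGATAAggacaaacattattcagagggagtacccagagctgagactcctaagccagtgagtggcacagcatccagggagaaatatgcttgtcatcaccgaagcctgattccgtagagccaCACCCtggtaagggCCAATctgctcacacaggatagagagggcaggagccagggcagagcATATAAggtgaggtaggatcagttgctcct
Hbb-bt: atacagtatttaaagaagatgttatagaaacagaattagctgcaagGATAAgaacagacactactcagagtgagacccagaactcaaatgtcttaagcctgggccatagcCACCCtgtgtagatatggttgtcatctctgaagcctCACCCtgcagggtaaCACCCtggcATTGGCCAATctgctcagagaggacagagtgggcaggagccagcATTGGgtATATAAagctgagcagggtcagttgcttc
The window of *Hba-a2*, chr11:32296242-32296491, shared an unbroken run of 247 bases with that of *Hba-a1* and is not printed. All 4 windows held each of the 4 motifs. Of 32851 RefSeq windows of the same length, 9.10% held ATATAA, 33.8% held CCAAT, 52.0% held CACCC, 22.6% held GATAA and 0.466% held all 4. The TATA-like match began 28 bases before the start in *Hba-a1*, 30 in *Hbb-bs* and 29 in *Hbb-bt*. These matches describe letters only.

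Library totals were 25371887 to 55333329 counts in the contralateral libraries and 36925501 to 59846479 in the ipsilateral ones, and no pair of libraries held identical counts. Genes detected numbered 9020 to 15545. The ipsilateral PTE- library of mouse a8_11 had the fewest, 9020, against 10886 for the next. The contralateral sham library of mouse a8_16 had by far the lowest haemoglobin, 0.00302% of its counts against 0.0170% for the next contralateral library. The main contrasts that hold these libraries are also given without them. The astrocyte marker list was present in full, with all 10 genes above 3 counts in most libraries and summed levels from 11265 to 36088 CPM (counts scaled to a common library size).

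All 4 genes were detected and all 4 passed the filter on low counts in both hemispheres. Together they took 0.00302% to 0.404% of a library's counts, with a median of 0.0823% contralaterally and 0.0447% ipsilaterally. Per transcript length, *Hba-a1* was among the more abundant messages of the libraries, with a median of 1487 TPM (transcript abundance scaled per length) contralaterally, rank 58 of 21975 genes, and 815 TPM ipsilaterally, rank 111. *Hba-a2* followed with medians of 941 and 600 TPM, and *Hbb-bs* with 744 and 509 TPM. *Hbb-bt* was far lower, at 89.6 and 56.3 TPM. *Hba-a1* exceeded *Hba-a2* and *Hbb-bt* in 37 of 37 libraries and *Hbb-bs* in 36, while *Hba-a2* exceeded *Hbb-bs* in 25 of 37, so the order of those 2 was not fixed.

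*Hbb-bs* ranged 49.9-fold across libraries, from 16.96 to 846 CPM. In contralateral sham mice it was 16.96 (a8_16), 73.4 (a8_15), 136 (a9_9), 187 (a9_11) and 214 CPM (a9_10). In contralateral PTE- mice the lowest, median and highest values were 78.6, 239 and 846 CPM. In contralateral PTE+ mice it was 25.4 (a9_18), 105 (a9_19), 184 (a8_10), 384 (a9_17) and 641 CPM (a8_17). Every PTE- library lay above the 2 lowest sham libraries, and the 3 groups overlapped. In ipsilateral sham mice the gene stood at 52.9 (a8_16), 123 (a8_15), 188 (a9_11), 335 (a9_10) and 344 CPM (a9_9). Ipsilateral PTE- mice had a lowest, median and highest value of 22.5, 84.6 and 212 CPM. The 4 ipsilateral PTE+ mice lay close together at 56.4, 101, 108 and 122 CPM. Here too the groups overlapped, and sham held the 2 highest libraries.

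*Hba-a1* had the same layout at higher values. Contralateral sham mice had 11.4, 152, 314, 389 and 391 CPM, with a8_16 again lowest. Contralateral PTE- mice had 179, 617 and 1948 CPM as the lowest, median and highest, and contralateral PTE+ mice had 94.1, 270, 456, 782 and 1073 CPM. Contralateral levels averaged 252 ± 166 CPM in sham (SD, n = 5), 636 ± 536 in PTE- (n = 10) and 535 ± 394 in PTE+ (n = 5), so the spread within the injured groups was as large as the distance between them. In the ipsilateral hippocampus sham mice had 116, 276, 340, 684 and 981 CPM. The lowest, median and highest ipsilateral PTE- values were 40.9, 140 and 598 CPM, and the 4 PTE+ mice had 137, 179, 205 and 270 CPM. Ipsilateral means were 479 ± 349 CPM in sham (n = 5), 244 ± 201 in PTE- (n = 8) and 198 ± 55.7 in PTE+ (n = 4). *Hbb-bt* was lowest of the 4 everywhere, from 0.0426 CPM (2 counts) in the contralateral library of a8_16 to 189 CPM in the contralateral PTE- library of a9_14. The cells that the haemoglobin reads came from were not identified. In these bulk libraries the number of such cells and the message in each cannot be told apart.

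**Figure D1:**
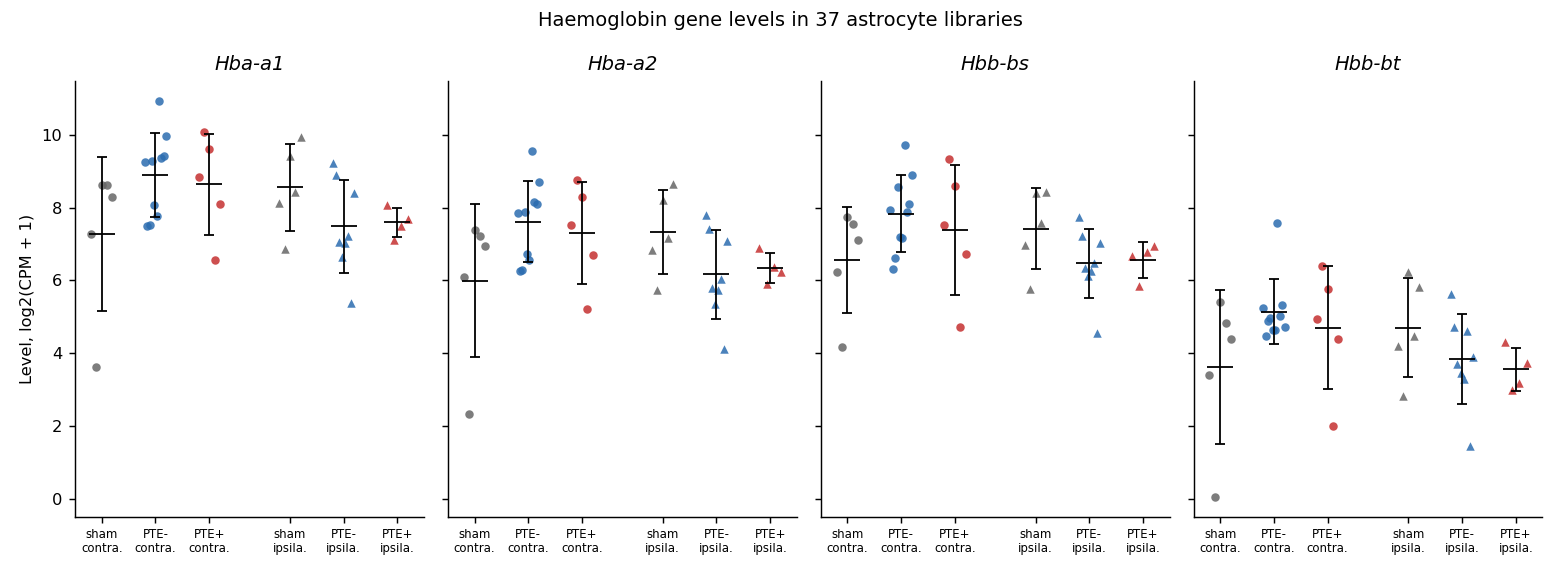
Level of each haemoglobin gene, as log2(CPM + 1), in the 37 libraries by group and hemisphere. Points are libraries (circles contralateral, triangles ipsilateral), and black bars are the group mean and SD. Sham means are lowest contralaterally and highest ipsilaterally, the groups overlap in every panel, and the contralateral sham library of a8_16 lies at the bottom of each panel.

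The comparison of hemispheres asks whether the side of the impact differed from the opposite side of the same animal. This is the contrast that led to the choice of *Hbb-bs*. Among the 15731 genes of that fit, 0% passed an adjusted p of 0.05 and 2.61% had an unadjusted p under 0.05 in the 3 groups together. In sham mice *Hbb-bs* was higher ipsilaterally in 5 of 5 mice, by 0.01, 0.64, 0.74, 1.33 and 1.59 on the log2(CPM + 1) scale. The smallest of these, in a9_11, turned to -0.06 in TPM and to -0.04 with the beta copies summed. In PTE- mice it was lower ipsilaterally in 7 of 8, with differences from -3.33 (a9_15) and -3.24 (a9_14) to -0.19 (a8_11), and higher in a8_14 by 0.62. In the 4 PTE+ mice it was lower in 2 (-2.75 in a9_17, -0.87 in a8_10) and higher in 2 (0.21 in a9_19, 2.05 in a9_18). Mean within-mouse differences, ipsilateral minus contralateral, were 0.86 ± 0.62 in sham (SD, n = 5), -1.42 ± 1.40 in PTE- (n = 8) and -0.34 ± 2.01 in PTE+ (n = 4).

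The other 3 genes shared this layout. *Hba-a1* was higher ipsilaterally in 4 of 5 sham mice (mean 1.27 ± 1.28), lower in 7 of 8 PTE- mice (-1.47 ± 1.80) and lower in 3 of 4 PTE+ mice (-0.68 ± 1.41). *Hbb-bt* gave the same counts, with means of 1.08 ± 1.14, -1.44 ± 1.298 and -0.72 ± 1.62. The sham mean of *Hba-a1* fell to 0.78 without a8_16, whose own difference was 3.24. Over all 17 mice *Hbb-bs* was lower ipsilaterally in 9 and higher in 8, and each of the other 3 genes was lower in 11 and higher in 6. These counts pool sham and PTE- mice, which mostly went in opposite directions. Fitted with edgeR over the 3 groups together, the ipsilateral level of *Hbb-bs* was 0.607-fold the contralateral one (log2 -0.72, SE 0.39), and 0.731-fold (log2 -0.45, SE 0.41) with the mouse as a paired block.

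**Figure D2:**
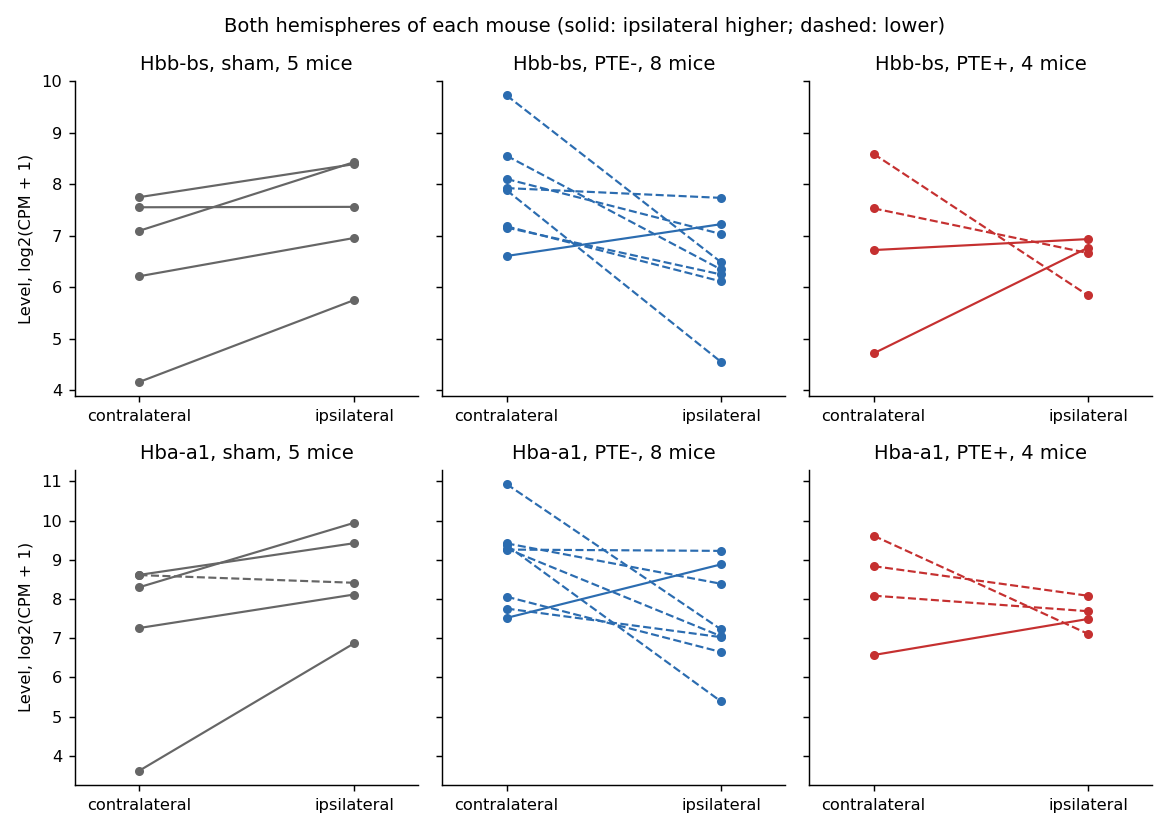
*Hbb-bs* (top) and *Hba-a1* (bottom) in both hemispheres of each mouse, as log2(CPM + 1), by group. Each line is 1 mouse, solid where the ipsilateral library is higher and dashed where it is lower. For *Hbb-bs* all 5 sham lines are solid, that of a9_11 nearly level, 7 of 8 PTE- lines are dashed and the 4 PTE+ lines divide evenly.

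Within the contralateral hippocampus, the comparison of injured with sham mice asks whether haemoglobin message differed on the side away from the impact. All 4 genes had higher fitted levels in PTE- than in sham mice and none passed the test over 14642 genes, where 0% passed for this contrast and 1.54% had an unadjusted p under 0.05. By edgeR's quasi-likelihood test *Hba-a1* stood at 2.54-fold (log2 1.34, SE 0.68, p = 0.0607, adjusted p = 0.9999), *Hba-a2* at 2.51-fold, *Hbb-bs* at 2.33-fold (log2 1.22, SE 0.66, p = 0.0776, adjusted p = 0.9999) and *Hbb-bt* at 2.27-fold. The median of the 4 log2 values was 1.27, beside 0.07 over all genes tested. A two-sided exact permutation test of each gene on log2(CPM + 1) gave p = 0.0626 for *Hba-a1*, 0.0583 for *Hba-a2*, 0.0726 for *Hbb-bs* and 0.0390 for *Hbb-bt*, unadjusted, among 24 such tests in all. The *Hbb-bs* levels tested had also entered the choice of the genes. Without the a8_16 sham library the edgeR values were 1.03 for *Hba-a1* (p = 0.108) and 0.94 for *Hbb-bs* (p = 0.167). Leaving out 1 library at a time, values ranged from 0.97 to 1.56 for *Hba-a1*, 0.87 to 1.502 for *Hbb-bs* and 0.54 to 1.65 for *Hbb-bt*, lowest without PTE- a9_14 and highest without sham a9_10. Cell type markers shifted here too. All 10 microglia markers had higher fitted levels in PTE- mice (list median log2 0.82), and 9 of 10 neuron markers had lower ones (-0.98).

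PTE+ mice also had higher fitted contralateral levels than sham, by log2 1.08 for *Hba-a1* (SE 0.74) and 1.08 for *Hbb-bs* (SE 0.73), with all 4 adjusted p = 0.9999 by edgeR, 0% of genes called and 1.23% with an unadjusted p under 0.05. Exact permutation p-values were 0.286 to 0.452. Without the a8_16 sham library the edgeR values were 0.77 for *Hba-a1* (unadjusted p = 0.265) and 0.80 for *Hbb-bs* (unadjusted p = 0.276). Leaving out 1 library at a time, they ranged from 0.66 to 1.35 for *Hba-a1* and from 0.47 to 1.38 for *Hbb-bs*, lowest without PTE+ a8_17 and highest without PTE+ a9_18. In this contrast all 10 endothelial markers also had higher fitted levels in PTE+ mice, with a list median of log2 0.97 beside 0.03 over all genes, and 1 of the 10 had an unadjusted p under 0.05, the tight junction gene *Cldn5* (log2 1.42, unadjusted p = 0.0227 by edgeR). The summed level of that list was 745 to 4362 CPM in contralateral PTE+ and 522 to 1703 CPM in contralateral sham libraries, and its part in the haemoglobin values was not tested. Between PTE+ and PTE- mice the log2 values were -0.27 (*Hba-a1*) to -0.14 (*Hbb-bs*), with SE 0.62 to 0.84 and adjusted p = 0.9998 by edgeR, where 0.00683% of genes were called and 2.21% had an unadjusted p under 0.05. There all 10 endothelial markers again had higher fitted levels in PTE+ mice, while all 4 haemoglobin genes had lower ones. The endothelial list median was log2 0.90 beside -0.05 over all genes. The endothelial list was not alone in this. All 10 neuron markers were higher as well (list median log2 1.42), and 9 of 10 astrocyte markers were lower (-0.15). These 3 contrasts share their PTE+, PTE- and sham libraries and are not independent of one another.

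The prefix of the mouse name, a8 or a9, is not explained in the labels, and the contralateral contrasts differed between the prefixes. Within a8 mice the PTE- minus sham difference of *Hba-a1* was 2.94 on the log2(CPM + 1) scale (4 against 2 mice, with a8_16 among the 2), and within a9 mice it was 0.74 (6 against 3). For PTE+ minus sham it was 4.01 within a8 (2 against 2) and -0.42 within a9 (3 against 3). *Hbb-bs* gave 2.16 and 0.69 for PTE- minus sham, and 3.24 and -0.79 for PTE+ minus sham. The direction against sham thus held within both prefixes for PTE- and not for PTE+. Without a8_16 a single sham mouse is left within a8, and the a8 differences of *Hba-a1* were 1.13 for PTE- minus sham and 2.19 for PTE+ minus sham, and those of *Hbb-bs* 1.13 and 2.21.

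In the ipsilateral hippocampus, on the side of the impact, all 4 genes had lower fitted levels in both injured groups than in sham, and none passed the test over 14903 genes. For PTE- against sham, 0% of genes passed and 1.58% had an unadjusted p under 0.05, as *Hbb-bs* did. *Hbb-bs* stood at 0.496-fold (log2 -1.01, SE 0.47, p = 0.0464, adjusted p = 0.9999, edgeR), *Hba-a1* at 0.510-fold (log2 -0.97, SE 0.55, p = 0.0954), *Hba-a2* at 0.468-fold and *Hbb-bt* at 0.518-fold. The exact permutation p-values were 0.131 for *Hbb-bs*, 0.159 for *Hba-a1*, 0.116 for *Hba-a2* and 0.266 for *Hbb-bt*. Without the a8_11 library the *Hbb-bs* value was -1.24 (edgeR unadjusted p = 0.0137), and without the a8_16 sham library -1.29 (p = 0.0104). Over all single libraries left out it ranged from -1.29 to -0.75, the last without sham a9_9 (p = 0.151), and *Hba-a1* was -0.53 without that library. The median of the 4 genes was -0.99, beside 0.02 over all genes tested.

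For PTE+ against sham the values were log2 -1.28 for *Hba-a1* (SE 0.68, p = 0.0772), -1.11 for *Hbb-bs* (SE 0.58, p = 0.0722) and -1.58 for *Hbb-bt* (SE 0.94, p = 0.109), with adjusted p = 1 by edgeR, 0% of genes called and 1.66% with an unadjusted p under 0.05. Between PTE+ and PTE- libraries the values were -0.31 for *Hba-a1* (SE 0.61), -0.10 for *Hbb-bs* (SE 0.52) and -0.63 for *Hbb-bt* (SE 0.85), adjusted p = 1 by edgeR, with 0% of genes called and 1.75% at an unadjusted p under 0.05. On the log2(CPM + 1) scale the means of *Hba-a1*, *Hba-a2* and *Hbb-bs* were instead slightly higher in PTE+, by 0.11, 0.18 and 0.08. The name prefix mattered here too. Within a9 mice the PTE- minus sham difference of *Hbb-bs* was -2.04 (5 against 3), and within a8 mice it was 0.75 in the opposite direction (3 against 2). For ipsilateral PTE- against sham, 7 of 10 astrocyte markers had lower and 3 had higher fitted levels, with a list median of log2 -0.30 beside 0.02 over all genes. By edgeR 2 of the 10 had an unadjusted p under 0.05, beside 1.58% of all genes, *Aldoc* at log2 -0.72 (p = 0.0145) and *Aldh1l1* at -0.63 (p = 0.00882), both metabolic enzymes with adjusted p = 0.9999, while *Gfap*, an intermediate filament gene, had 0.87 (p = 0.0843). The summed level of the list was 19687 to 36088 CPM in ipsilateral sham and 11265 to 33328 CPM in ipsilateral PTE- libraries. Other cell type lists shifted as well. In ipsilateral PTE- against sham 6 of 7 oligodendrocyte markers tested were lower (list median log2 -1.40) and 8 of 10 neuron markers were higher (0.60). In ipsilateral PTE+ against sham all 7 oligodendrocyte markers tested were lower (-1.57). The part of these markers in the haemoglobin values was not tested.

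**Figure D3:**
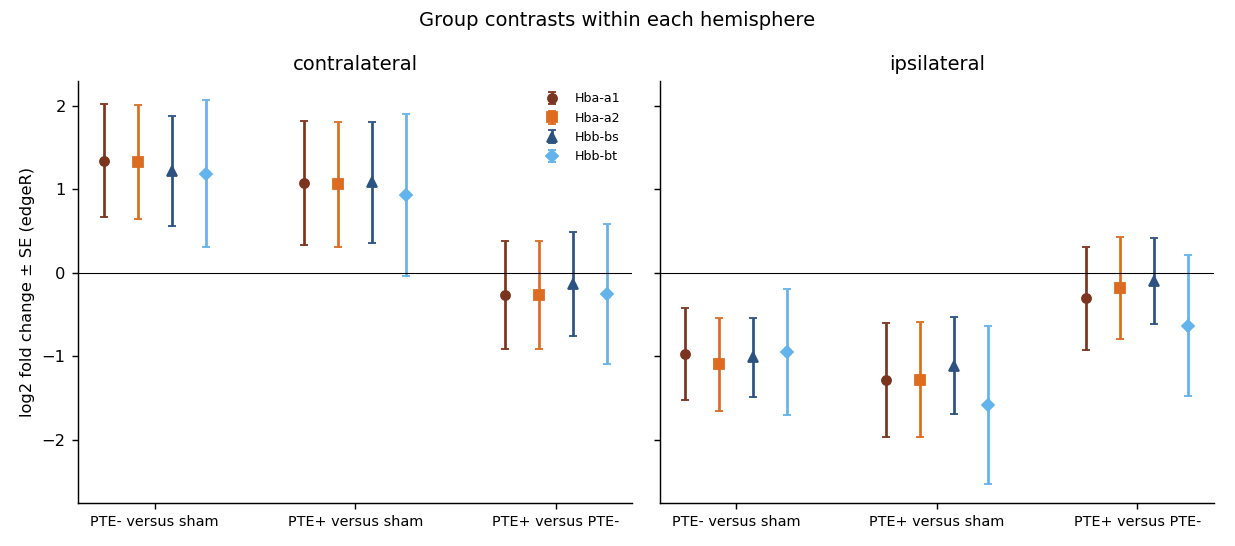
Fitted log2 fold change (edgeR) of the 4 genes in the 3 group contrasts of each hemisphere, and error bars are the SE. Both contrasts with sham lie above 0 contralaterally and below 0 ipsilaterally, the contrast of PTE+ with PTE- lies within 1 SE of 0 on both sides, and no value passed the adjusted test.

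The chains rose and fell together. Across contralateral libraries the levels of *Hba-a1* and *Hbb-bs* were correlated with r = 0.956 and rho = 0.976 (permutation p = 1e-05 each, the smallest that 100000 permutations can give, adjusted p = 0.000120 over 24 relations, n = 20), and r was 0.962 without the 2 libraries farthest from the median of *Hba-a1*. Ipsilaterally r was 0.962 and rho 0.971 (same p and adjusted p, n = 17), with r = 0.928 without the 2 farthest. Within a8 and a9 mice rho was 1 and 0.944 contralaterally and 1 and 0.973 ipsilaterally. The relation of *Hba-a1* with *Hbb-bs* was chosen after seeing the data, and the *Hbb-bs* levels had entered the choice of the genes. Alpha-chain counts exceeded beta-chain counts in 36 of 37 libraries, with a median ratio of 2.56. The ratio lay between 1.78 and 4.60 except in the contralateral library of a8_16, where it was 0.907. In TPM, per length, the median ratio was 2.55.

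The split of counts between near-identical copies behaved differently for the 2 chains. *Hba-a2* took 26.3% to 31.5% of alpha-chain counts in every library, with a median of 28.9%. *Hbb-bt* took a median of 12.6% of beta-chain counts, with a range from 5.07% (contralateral PTE- a9_20) to 22.9% (contralateral PTE- a8_14) apart from a8_16, where it took 0.251%. Because the estimated counts divide reads that match both copies, single-copy values, *Hbb-bt* in particular, are uncertain. With the copies of each chain summed, PTE- against sham gave log2 1.34 for the alpha chain and 1.21 for the beta chain contralaterally, and -1.01 and -1.002 ipsilaterally. Ipsilaterally the value of *Hbb-bt* in PTE+ against sham, -1.58 on its own, became -1.17 for the summed beta chain, and that in PTE+ against PTE- went from -0.63 to -0.17. The *Hbb-bt* share of 1 hemisphere and that of the other in the same mouse had rho = 0.512 (permutation p = 0.0364, adjusted p = 0.218, n = 17) and r = 0.412 (permutation p = 0.101, adjusted p = 0.525), with r = 0.493 without the 2 mice farthest from the median, and rho was 0.714 within a8 and 0.700 within a9 mice. The *Hbb-bs* level itself had rho = -0.08 and r = 0.0190 between the hemispheres of a mouse, which is given as a description because both levels entered the choice of the gene.

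**Figure D4:**
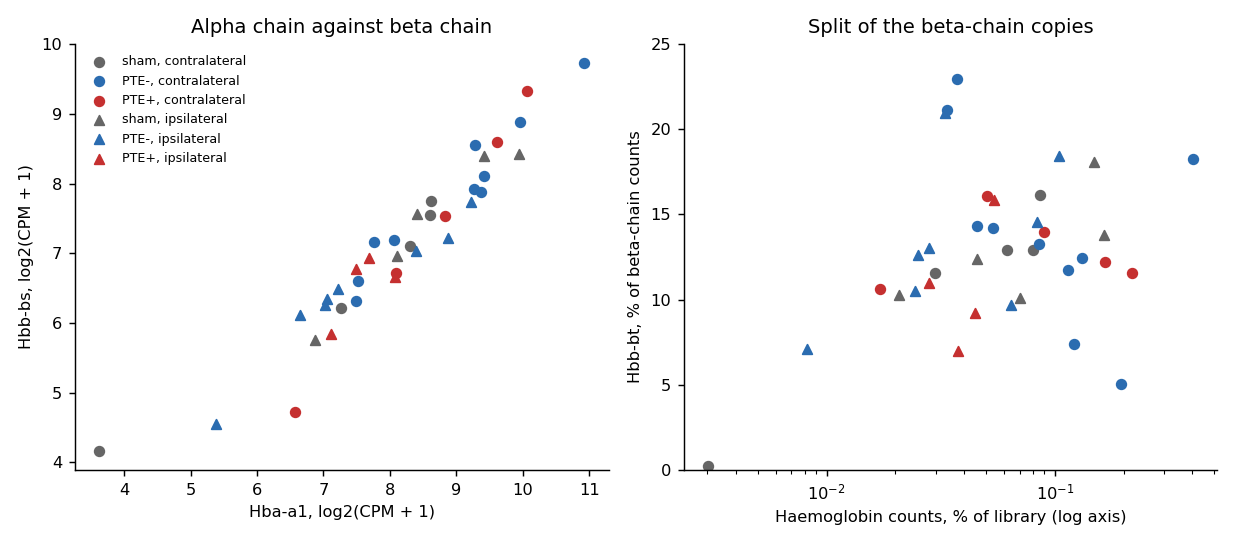
Left, *Hbb-bs* against *Hba-a1*, both as log2(CPM + 1), 1 point per library. Right, the share of beta-chain counts assigned to *Hbb-bt* (%) against the share of all counts taken by the 4 genes (%, log axis). The chains rise together across the libraries, and the library of a8_16 stands alone at the bottom left of both panels with an *Hbb-bt* share of 0.251%.

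Several defining genes of the red cell were missing. Of 19 red cell markers in the tables, *Slc4a1* (the band 3 anion exchanger), *Kel* (a blood group antigen) and *Rhag* (a membrane channel of the Rh complex) never exceeded 3 counts in any of 37 libraries, and *Slc4a1* and *Kel* had no count at all. *Epb42* and *Hemgn* exceeded 3 counts in 1 library each. Listed genes with higher levels included *Bpgm*, which makes 2,3-bisphosphoglycerate and is also expressed in brain cells (mean 98.7 CPM), *Gypc* (13.8 CPM) and *Alas2* (5.81 CPM). The summed level of the list was 17.01 to 181 CPM in contralateral sham, 78.6 to 273 CPM in contralateral PTE- and 107 to 240 CPM in contralateral PTE+ libraries. Ipsilaterally it was 151 to 259 CPM in sham, 0.254 to 246 CPM in PTE- and 108 to 182 CPM in PTE+.

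*Alas2*, the erythroid form of the first enzyme of haem synthesis, exceeded 3 counts in 17 of 37 libraries. It had 0 counts in the contralateral PTE- library of a9_14, which held the most haemoglobin of all (*Hbb-bs* 846 CPM), and 5 counts in the contralateral PTE+ library of a8_17 (*Hbb-bs* 641 CPM). The highest *Alas2* levels were 60.1 CPM in contralateral PTE- a9_20 (*Hbb-bs* 473 CPM) and 59.6 CPM in ipsilateral sham a9_9 (*Hbb-bs* 344 CPM). In ipsilateral PTE+ mice it had 0, 0, 0 and 8 counts, and in ipsilateral sham mice 0, 51, 360, 963 and 3290 counts. For that contrast edgeR gave an unadjusted p of 0.0281 and an adjusted p = 1.

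Among other globins, the embryonic genes *Hba-x*, *Hbb-y*, *Hbb-bh1* and *Hbb-bh2* had 0 counts in every library, and *Hbq1a* had at most 1. The globins of other tissues were low, with means of 8.37 CPM for *Cygb* (cytoglobin), 4.52 for *Ngb* (neuroglobin) and 3.87 for *Mb* (myoglobin). Of 9 erythroid regulators, *Gata1* and *Gfi1b* had 0 counts in every library. *Klf1*, which binds CACCC boxes of the beta-globin promoter, exceeded 3 counts in 14 libraries (mean 0.983 CPM), and *Lmo2*, which endothelial cells also express, was highest of the list (mean 26.0 CPM).

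Of 9 haem synthesis genes, all but *Alas2* exceeded 3 counts in at least 32 of 37 libraries. *Alas1*, the general form of the first enzyme (mean 182 CPM), *Alad*, the second enzyme (116 CPM), *Fech*, which inserts the iron (114 CPM), and *Urod* (87.0 CPM) exceeded 3 counts in 37 of 37 libraries. The ferritin chains *Fth1* (1863 CPM) and *Ftl1* (1405 CPM) led the list of haem and iron handling genes, followed by *Slc48a1*, a haem transporter (353 CPM), and *Lrp1*, a receptor for haem bound to haemopexin (321 CPM). *Hmox1*, the inducible haem oxygenase, averaged 21.5 CPM, and *Cd163*, the macrophage receptor for haemoglobin, 0.406 CPM. In the 6 group contrasts none of the tested genes of these 5 lists passed the adjusted test by edgeR. At an unadjusted p under 0.05, 1 of 9 haem synthesis genes (*Alas1*) was lower in ipsilateral PTE- against sham beside 1.58% of all genes, 2 (*Alas1*, *Alas2*) were lower in ipsilateral PTE+ against sham beside 1.66%, and 1 (*Alad*) was lower in each of contralateral PTE+ against PTE-, beside 2.21%, and contralateral PTE+ against sham, beside 1.23%. Of the 8 red cell genes tested, 2 (*Alas2*, *Tent5c*) were lower in ipsilateral PTE+ against sham and 1 (*Tent5c*) in ipsilateral PTE+ against PTE-, beside 1.75%, and of the haem and iron handling list none. *Alas1* had log2 -0.80 in ipsilateral PTE- against sham (SE 0.29, unadjusted p = 0.0122, adjusted p = 0.9999) and -0.83 in ipsilateral PTE+ against sham (SE 0.35, unadjusted p = 0.0287, adjusted p = 1), and *Alad* had -0.65 in contralateral PTE+ against PTE- (SE 0.24, unadjusted p = 0.0132, adjusted p = 0.9998). The list medians in ipsilateral PTE- against sham were -0.51 for haem synthesis, -0.15 for the red cell list and -0.05 for haem and iron handling, beside 0.02 over all genes.

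The level of *Hbb-bs* was set against marker lists of blood, vessel and brain cells, each as the mean log2(CPM + 1) of its genes, and against depth, within each hemisphere. The red cell list had rho = 0.149 contralaterally (permutation p = 0.530, adjusted p = 0.863, n = 20) and -0.02 ipsilaterally (p = 0.937, adjusted p = 0.977, n = 17), with r of 0.275 and -0.17 (permutation p = 0.241 and 0.495, adjusted p = 0.731 and 0.811). Without the 2 farthest libraries r was -0.16 and 0.309. Neutrophil, platelet, endothelial, mural, microglial and neuronal lists had rho between -0.23 and 0.262, with adjusted permutation p of 0.863 or more. Genes detected had rho = -0.20 contralaterally and -0.34 ipsilaterally (adjusted permutation p = 0.863 for both). No relation with these lists or with depth passed the adjustment over 24 relations.

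The astrocyte list stood apart from the other lists in the contralateral hippocampus, where *Hbb-bs* was lower in libraries with higher astrocyte markers. There r was -0.63 (permutation p = 0.00246, adjusted p = 0.0197, n = 20) and rho -0.55 (permutation p = 0.0130, adjusted p = 0.104), so Pearson's r passed the adjustment and Spearman's rho did not. The relations adjusted over include those of *Hba-a1* with *Hbb-bs*, chosen after seeing the data and with the smallest p-values. They lower the adjusted p of the rest, so this pass depends on which relations are counted. Without the 2 libraries farthest from the median r was -0.58, and rho was -0.79 within a8 mice (n = 8) and -0.41 within a9 mice (n = 12). Ipsilaterally r was -0.25 (permutation p = 0.324, adjusted p = 0.731, n = 17) and rho -0.27 (permutation p = 0.289, adjusted p = 0.863), with r = -0.10 without the 2 farthest and rho of -0.83 within a8 and 0.0364 within a9 mice. The difference between the hemispheres was not tested. All values of a library are shares of 1 total, which both measures have in common.

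**Figure D5:**
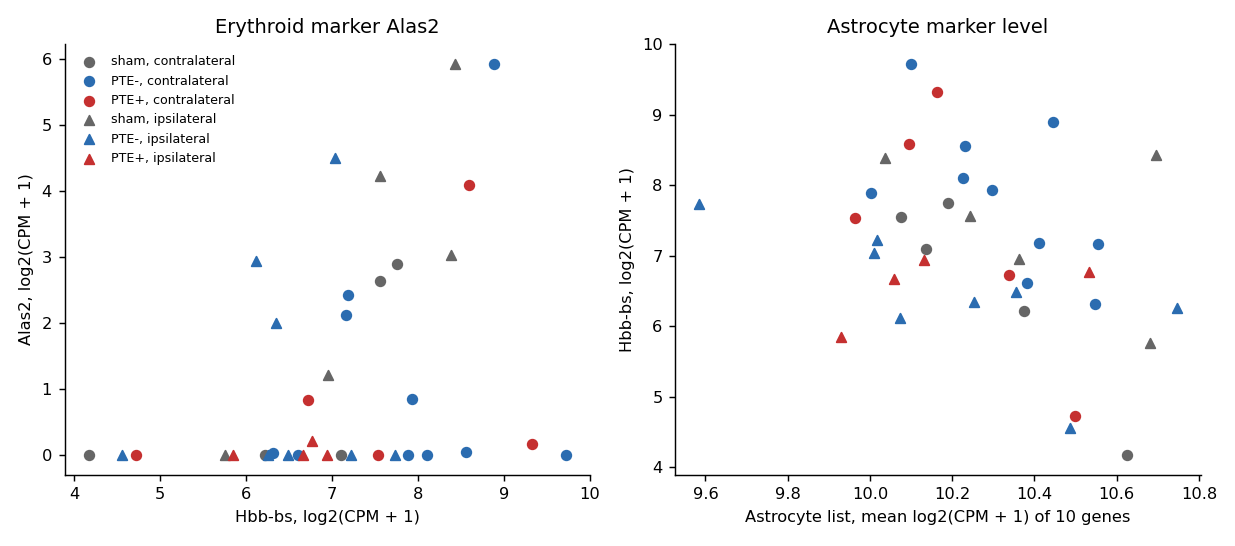
Left, *Alas2* against *Hbb-bs*, both as log2(CPM + 1), 1 point per library. Right, *Hbb-bs* against the mean log2(CPM + 1) of the 10 astrocyte markers. Libraries with 0 *Alas2* counts occur from the lowest to the highest *Hbb-bs* level, other libraries reach 60.1 CPM of *Alas2*, and contralateral libraries (circles) fall from left to right in the right panel (rho = -0.55).

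Contralaterally the genes whose levels followed *Hbb-bs* most closely were the other haemoglobin genes, where *Hba-a2* had rho = 0.977, *Hba-a1* 0.976 and *Hbb-bt* 0.869, and no other gene of the 14642 tested lay above any of them. The nearest others over the 20 libraries were *Ccnd2* (0.740), *Stub1* (0.731), *Chmp6* (0.728), *Smad4* (0.723) and *Pcid2* (0.716). Ipsilaterally *Hba-a1* had rho = 0.971, *Hba-a2* 0.961 and *Hbb-bt* 0.882, and over the 17 libraries the nearest others were *Nxpe5* (0.895, above *Hbb-bt*), *Tma16* (0.826), *Tmem229a* (0.816), *Spata31d1a* (0.694) and *Hes6* (0.672). *Nxpe5* exceeded 3 counts in only 4 of these libraries, so its rank order rests mostly on counts of 3 or fewer. In the other hemisphere *Ccnd2* had rho = 0.515 and *Pcid2* -0.68, *Tma16* -0.20 and *Tmem229a* -0.26, and no gene outside the haemoglobins was among the nearest 5 on both sides.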

How the data were processed

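RNA of astrocytes was amplified with a SMART-Seq V4 kit and sequenced. The authors trimmed reads with Trim Galore 0.6.4 and aligned them to mm10 with Bowtie2 2.4.1 under RSEM 1.2.28; the annotation release is not given in the sources used here. The deposited values are expected counts, already whole numbers, and the authors' TPM. RSEM divides reads that match several genes by estimation, which bears on the near-identical haemoglobin copies. Only counts were tested, and TPM served for levels between genes and as an alternative. The 4 members and the gene lists were chosen with earlier results of these data known.

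Counts were filtered (filterByExpr by group), scaled by TMM and tested with edgeR 4.0.16's quasi-likelihood test on the 3 groups of each hemisphere, with Benjamini-Hochberg adjustment over all genes tested. CPM set side by side used 1 TMM scaling over all 37 libraries. Each member was also tested by a two-sided exact permutation of group labels on log2(CPM + 1). Relations across libraries used 100000 permutations. The smallest p the exact tests could give was 0.000333 to 0.00794. Alternatives were RLE scaling, no filter, DESeq2 1.42.0, limma 3.58.1 on log2(TPM + 1), the name prefix as covariate, fewer groups, summed copies, a pseudocount of 0.1 and leaving out each library. Code was tested on simulated data. Depth was 25371887 to 59846479 counts a library. Counting error is small beside the spread between libraries except at very low counts, such as 2 for *Hbb-bt* in the contralateral library of a8_16. Each mouse gave 1 library per hemisphere, so p-values measure the spread between libraries. That spread holds both the difference between mice and that of preparation. Nothing says whether the libraries of a group were prepared together.

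Hemispheres were paired by the mouse name in the labels. Over all genes tested, deviations of the 2 libraries of a mouse from their group means had a median correlation of 0.0801 (range -0.03 to 0.316, over 0.1 in 7 of 17 mice). Named genes were the members, list genes that passed the test or had one of the 4 highest mean levels of their list, and the 5 genes with the highest rho with *Hbb-bs* per hemisphere. Defining markers, *Gfap*, *Hmox1*, *Cd163*, *Klf1*, *Gata1*, *Gfi1b*, the other globins and genes with an unadjusted p under 0.05 were named after their values were seen. Values of some list genes are not reported here.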

Additional observations from a re-analysis of the deposited data

Results flagged for a closer look

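A gap test for a library far from the rest of its group was run on log2(CPM + 1) of each member in the 6 groups, 24 in all, of which chance gives about 1 in 20. The 24 are not independent, because the 4 genes moved together across libraries and near-identical copies share reads. In contralateral sham mice the lowest library, a8_16, lay apart for *Hba-a1* (11.4 CPM against 152 CPM for the next, a gap of 0.729 of the group's range) and *Hba-a2* (4.07 against 67.4 CPM, a gap of 0.745). In contralateral PTE- mice the highest library, a9_14, lay apart for *Hbb-bt* (189 CPM against 39.0 CPM for the next, a gap of 0.724).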

How the results depend on the processing

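No member passed an adjusted p of 0.05 in any of the 6 group contrasts under any alternative, and the lowest adjusted p was 0.754, for *Hba-a1* in contralateral PTE- against sham with no filter on low counts. Over all genes DESeq2 called 89, 84 and 93 genes contralaterally (PTE+ against PTE-, PTE- against sham, PTE+ against sham) and 119, 66 and 94 ipsilaterally, against 1, 0 and 0 and 0, 0 and 0 by edgeR, none of them a haemoglobin gene; the cause was not tested. At an unadjusted p under 0.05 edgeR gave 323, 226 and 180 genes and 261, 236 and 248.

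Both contrasts with sham kept their direction for all 4 genes in every alternative fit and with each library left out, though not within each name prefix, where contralateral PTE+ minus sham of *Hba-a1* was -0.42 in a9 mice and in a8 mice ipsilateral PTE- minus sham and PTE+ minus sham of *Hbb-bs* were 0.75 and 0.31. PTE+ against PTE- did not keep its direction. Contralaterally *Hbb-bs* turned to 0.0517 with the name prefix as covariate, and ipsilaterally limma on log2(TPM + 1) gave 0.34 for *Hba-a1*, 0.45 for *Hba-a2* and 0.32 for *Hbb-bs*. Leaving out 1 library at a time, the contralateral values ranged from -0.68 to 0.11 for *Hba-a1*, -0.69 to 0.0897 for *Hba-a2*, -0.75 to 0.21 for *Hbb-bs* and -0.76 to 0.39 for *Hbb-bt*, turning without PTE- a9_14 or PTE+ a9_18, and for *Hbb-bs* also without PTE+ a9_19. The ipsilateral values ranged from -0.49 to 0.0635 for *Hba-a1*, -0.39 to 0.16 for *Hba-a2* and -0.25 to 0.17 for *Hbb-bs*, turning without PTE- a8_11, and for *Hbb-bs* also without PTE+ a9_17. The within-mouse mean in PTE+ ranged from -1.16 to 0.0124 for *Hba-a2* and -1.13 to 0.47 for *Hbb-bs*, turning without a9_17. With the mouse as a replicate block, chosen as an alternative for the paired design, the ipsilateral against contralateral value of *Hbb-bs* was -0.45 in place of -0.72 and changed no direction, in the 3 groups together or in each group, where the values were -1.41 in PTE-, -0.33 in PTE+ and 0.87 in sham. Taken as residuals from the group means, the contralateral relation of *Hbb-bs* with the astrocyte list had rho = -0.66 (permutation p = 0.00186, adjusted p = 0.0149). It passed the adjustment over the same relations, those of *Hba-a1* included. The relation of *Hbb-bs* between hemispheres turned to 0.150. The fits by group, the summed copies with the block, the a8 differences without a8_16, and the relations with *Hba-a1* and with the other hemisphere were chosen after seeing the data.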
